A study of Mus musculus with 12 samples.

Results

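MicroRNA genes were compared between the medial prefrontal cortex (mPFC) of 6 homecage (HC) mice and 6 mice exposed to chronic social defeat (CSD). The members were the genes whose symbol starts with Mir and a digit or with Mirlet, host genes left out, where a probe set of the array names that gene and no other. There were 296 such genes, of which 208 had at least 1 of 12 values above system noise and were measured, among 17656 measured genes in all. Both groups were wild type C57BL/6 males, and the labels give the tissue as prefrontal cortex, with no age. A CSD mouse shared the cage of a dominant CD-1 male behind a perforated partition that was taken out briefly each day for an agonistic encounter, and HC mice were group-housed. CSD mice entered the cohort through behavioural tests, and tissue was taken the day after the last defeat, with 1 Mouse Gene ST array per mouse. The dissection was bounded by the forceps minor, so that white matter at its edge could enter a sample.

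A microRNA gene is transcribed as part of a longer primary transcript that folds into a hairpin. Drosha and Dgcr8 cut the hairpin out in the nucleus, Xpo5 exports it, Dicer1 trims it to a short duplex, and an Argonaute protein keeps a single strand, which pairs with target mRNAs mainly through its seed, bases 2 to 8. Many microRNAs are abundant in brain, where they are known for roles in neuronal differentiation, dendritic spines and myelination. The arrays were hybridized with labelled product of total RNA, and a value here is the signal of a probe set annotated to the microRNA gene, not a level of the mature microRNA.

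Of the 208 measured microRNA genes 180 matched a RefSeq hairpin (GRCm38.p6) of 61 to 112 bases, median 86, and the other 28 are named only. The hairpins of the 3 Mir680 copies are shown first because 2 of them had the smallest p of all members; capitals mark the mature miR-680. Mir680-1 lies at chr6:129691535-129691643 on the plus strand, Mir680-2 at chrX:144297790-144297899 on the plus strand and Mir680-3 at chr12:35194811-35194897 on the minus strand of that build.

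Mir680-1: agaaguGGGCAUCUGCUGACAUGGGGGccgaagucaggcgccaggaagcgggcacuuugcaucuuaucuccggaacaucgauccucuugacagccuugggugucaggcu
Mir680-2: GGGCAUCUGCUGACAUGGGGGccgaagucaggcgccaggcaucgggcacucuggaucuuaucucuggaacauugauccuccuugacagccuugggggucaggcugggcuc
Mir680-3: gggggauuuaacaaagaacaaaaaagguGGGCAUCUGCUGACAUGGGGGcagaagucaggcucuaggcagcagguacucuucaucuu

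The 3 genes carry the same mature sequence, and their hairpins differ around it. Over a global alignment Mir680-1 and Mir680-2 were 82.8% identical, Mir680-1 and Mir680-3 45% and Mir680-2 and Mir680-3 47.7%. Probe sets of such copies can share signal, so the 3 are not independent measurements.

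Mir384 had the largest difference of all members. Its 5p arm carries the seed of the miR-30 family, shown here in capitals beside those measured members of the family that have a sequence in the RefSeq table (Mir30b and Mir30d are named only).

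mmu-miR-384-5p: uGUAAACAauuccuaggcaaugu
mmu-miR-30a-5p: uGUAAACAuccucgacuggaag
mmu-miR-30c-5p: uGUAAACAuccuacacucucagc
mmu-miR-30e-5p: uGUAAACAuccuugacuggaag

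Mir384 lies at chrX:105344282-105344369 on the minus strand. Mature sequences of further genes described below follow, with the seed in capitals. They come from Mir365-1 on chromosome 16, Mir690 on chromosome 16, Mir181a-2 on chromosome 2, Mir221 on chromosome X, Mir188 on chromosome X, Mir128-1 on chromosome 1 with Mir128-2 on chromosome 9, and Mir338 on chromosome 11.

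mmu-miR-365-3p: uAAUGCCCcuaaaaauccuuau
mmu-miR-690: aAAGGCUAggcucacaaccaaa
mmu-miR-181a-5p: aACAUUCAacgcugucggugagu
mmu-miR-221-3p: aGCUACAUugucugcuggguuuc
mmu-miR-188-5p: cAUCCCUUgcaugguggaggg
mmu-miR-128-3p: uCACAGUGaaccggucucuuu
mmu-miR-338-3p: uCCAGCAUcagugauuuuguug

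Mir128-1 and Mir128-2 give the same miR-128-3p from hairpins that were 71.4% identical. Mir365-1 gives the same miR-365-3p as Mir365-2, and those hairpins were 65.5% identical.

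Most microRNA genes had a slightly higher mean in CSD, and no single one passed the test after adjustment. The mean was higher in CSD for 154 of 208 (74.0%) and lower for 54, with differences (CSD minus HC, log2 scale) from -0.20 to 0.34 and a median of 0.047. Among all measured genes 42.9% had a higher mean in CSD, and the median difference was -0.010. Among the 9295 kept probe sets that the annotation lists no gene for, 58.8% had a higher mean and the median was 0.019. The median deviation of the members per array, described below, had an SD of 0.080 over the 6 HC arrays. The median SD of a single member was 0.15 in HC and 0.10 in CSD.

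**Figure D1:**
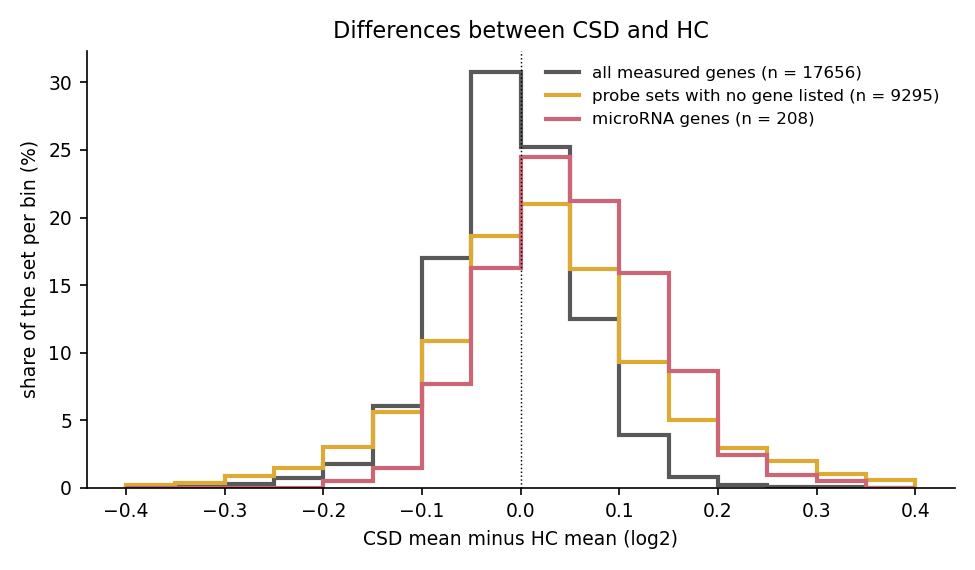
Share of each set, in percent, per bin of the difference between the CSD and HC means (log2, bins of 0.05), for the 208 microRNA genes, all measured genes and kept probe sets with no gene listed. The microRNA curve sits to the right of all measured genes, with medians of 0.047 and -0.010.

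At an adjusted p under 0.05 with a fold change of at least 1.2, limma called 0 microRNA genes, and their smallest adjusted p was 0.171. The same rule called 0 of all measured genes (0%). At an unadjusted p under 0.05 and that fold, 2 members were higher, Mir680-2 and Mir384, and 0 were lower. Over all measured genes these limits were passed by 0.0793% in the higher direction and 0.6% in the lower. With no fold limit 21 members (10.1%) were higher at an unadjusted p under 0.05 and 0 were lower, against 1.89% and 6.52% of all measured genes. Those 21 differed by 0.10 to 0.34, their adjusted p ran from 0.171 to 0.590, and in 15 of them each of the 6 CSD arrays lay above the HC mean. The 21 were picked by a small p on these same values, so the last count adds no separate support. In 2 members, Mir680-1 and Mir365-1, the lowest CSD array exceeded the highest HC array, and 0.0793% of all measured genes separated that way.

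These counts leaned on single arrays. Mir680-2 fell short of the fold limit in 6 of the 12 fits that left out 1 array (HC replicates 2, 3 and 4, CSD replicates 8, 9 and 10), and Mir384 in 0 of 12. The count at both limits, 2, became 7 without HC replicate 6, 4 without HC replicate 5 and 1 when HC replicate 2 or CSD replicate 9 was dropped. The 21 members past the unadjusted p became 37 without HC replicate 2, 12 when CSD replicate 9 was dropped and 11 when CSD replicate 7 was. The 0 lower members at that p became 3 without HC replicate 6, 2 without HC replicate 3 and 1 without CSD replicate 7. They became 1 with arrays centred on their medians, and 6 of 296 genes with no filter and no floor. The median difference was 0.080 without HC replicate 2 and 0.028 without HC replicate 6, and leaving out both gave 0.052 with 74.8% higher. Removal of 1 array at a time left between 127 and 169 members with a higher mean in CSD.

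The arrays behind this can be read from the median deviation of the 208 members from their HC means. In HC it ran from -0.12 on replicate 6 to 0.13 on replicate 2, with the other 4 arrays between -0.019 and 0.042. In CSD it ran from -0.013 on replicate 2 to 0.13 on replicate 9, with the other 4 between 0.019 and 0.070. The groups overlap on this measure. HC replicate 2 and CSD replicate 9 also had the highest median over the whole table, 7.69 and 7.63 against at most 7.60 on the other arrays, and the part of this general brightness in the shift was not tested. With every array centred on its median 67.5% of the microRNA genes were higher, with a median of 0.040 where that of all measured genes was -0.022, and quantile normalization gave 67.5% and 0.046.

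**Figure D2:**
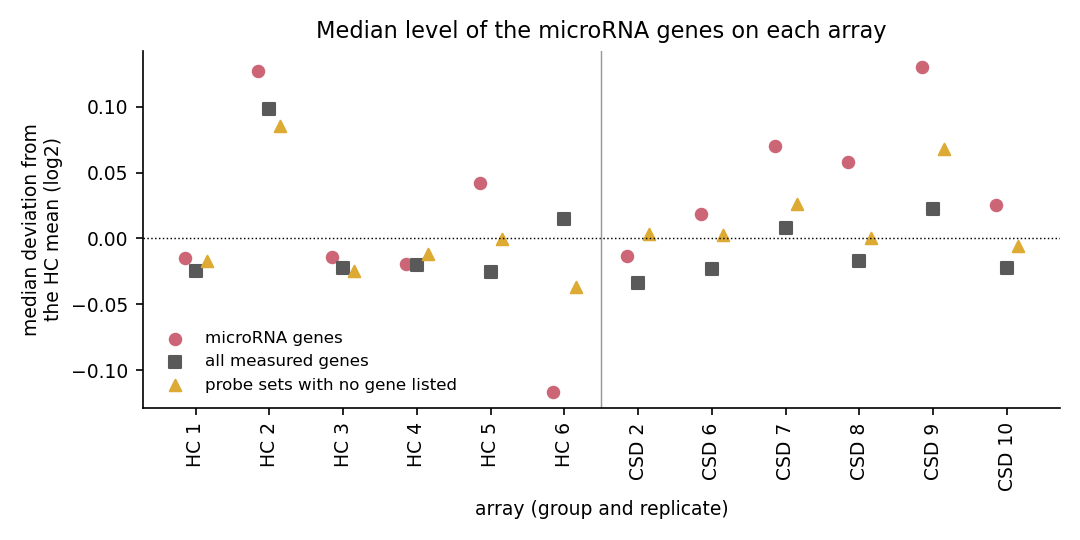
Median deviation from the HC mean (log2) on each of the 12 arrays for the 208 microRNA genes (circles), all measured genes (squares) and probe sets with no gene listed (triangles). HC replicates 2 and 6 mark both ends of the HC arrays, at 0.13 and -0.12 for the microRNA genes, and 5 of 6 CSD arrays lie above 0.

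Among the 208 members above noise the shift was seen at each level of signal. It was not seen among the 88 genes not above noise, most of which had a lower deposited mean in CSD. Over all 296 genes, with no filter and no floor, 61.5% were higher, with a median difference of 0.028. Split by signal into equal parts, the dimmest members (5.75 to 6.76) were higher in 66.7% with a median difference of 0.025, the middle ones in 75.4% with 0.046, and the brightest in 80.0% with 0.085. All measured genes in the same ranges were higher in 48.2%, 56.9% and 36.1%, and probe sets with no gene listed in 52.2%, 64.3% and 60.6%. Hairpins with the most G and C (54.3 to 69.2%) had a median difference of 0.070 and those with the least (31.3 to 46.8%) 0.032, and the first were also brighter, with a median signal of 7.72 against 6.84. The part of signal level and base composition in the shift was not tested.

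Among the single members the Mir680 copies came first. Mir680-2 ran in HC from 9.25 over a median of 9.33 to 9.49, and in CSD from 9.46 over 9.64 to 9.74. CSD replicate 6 was the lowest CSD array and lay among the HC arrays, and the other 5 CSD arrays lay above all of HC. The difference was 0.27 (SE 0.06, 1.203-fold), with an adjusted p of 0.171 from limma. The exact permutation test over the arrays gave an unadjusted p of 0.0065. Mir680-1 ran from 8.59 over 8.71 to 8.84 in HC and from 8.85 over 8.95 to 9.13 in CSD. Its groups did not overlap, although CSD replicate 10 and HC replicate 3 nearly met. The difference was 0.24 (SE 0.06, 1.18-fold, adjusted p = 0.235). Mir680-3 had means of 10.75 ± 0.16 in HC and 10.84 ± 0.07 in CSD (SD, n = 6), a difference of 0.10 (adjusted p = 0.779), and its CSD arrays all lay within the HC range. The 3 copies, which share the mature sequence printed above, thus had a higher CSD mean, by unequal sizes that were not tested against each other.

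**Figure D3:**
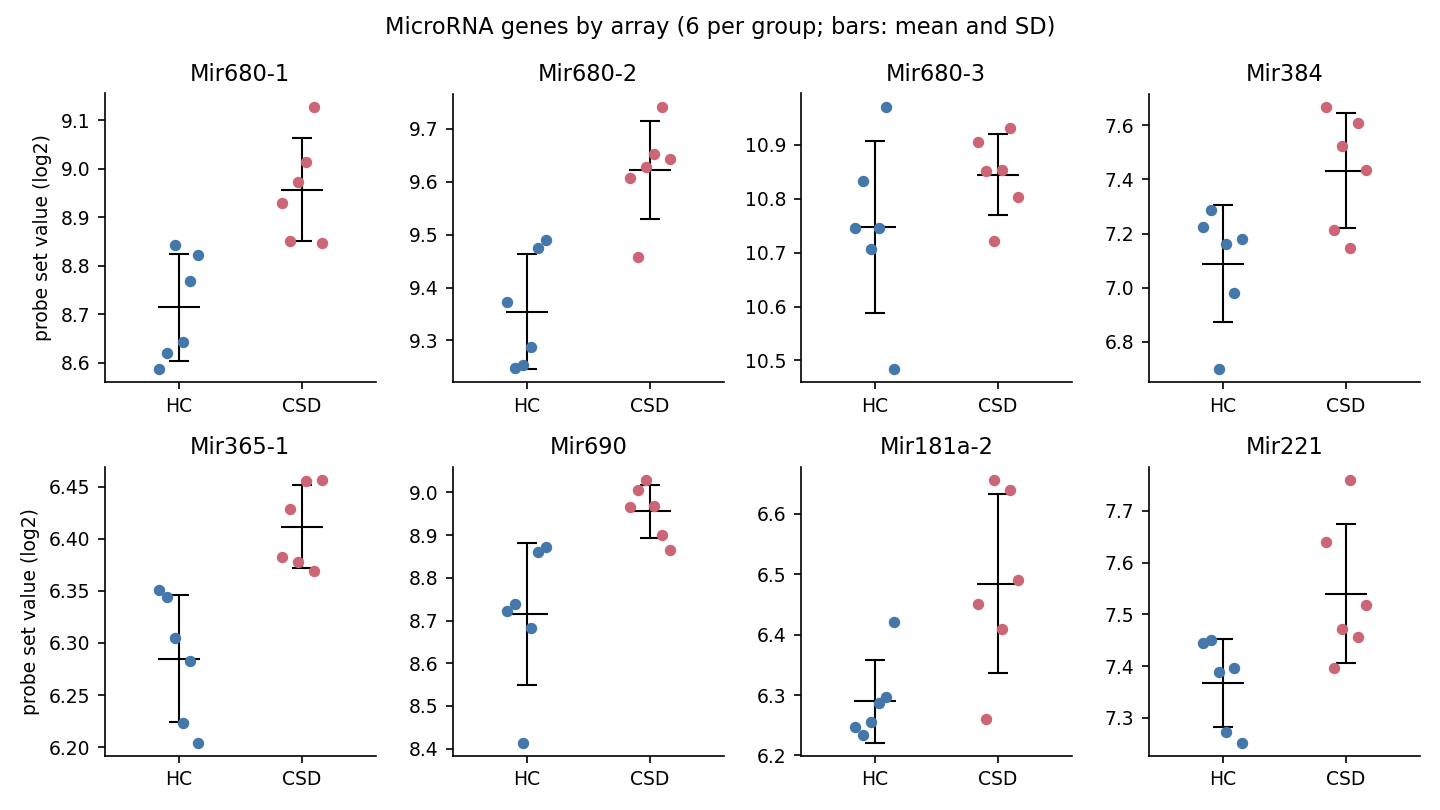
Probe set values (log2) of 8 microRNA genes on the 6 HC and 6 CSD arrays, with points for arrays and bars for the mean and SD; each panel has its own axis, which does not start at 0. CSD lies fully above HC for Mir680-1 and Mir365-1, and the groups overlap in the other panels.

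Mir384, a brain-enriched microRNA of the miR-30 seed group, ran in HC from 6.70 over a median of 7.17 to 7.29 and in CSD from 7.15 over 7.48 to 7.67. HC replicate 3 was the low end of HC, CSD replicates 6 and 8 lay within HC, and the other 4 CSD arrays lay above it. The difference was 0.34 (SE 0.11, 1.27-fold), with an adjusted p of 0.410 from limma and an unadjusted exact permutation p of 0.026. The paper from the same arrays lists Mir384 as raised, so this difference is not an independent observation. Of the other genes whose mature form has the seed GUAAACA, Mir30e differed by 0.11 (adjusted p = 0.797), Mir30c-1 by 0.03 and Mir30c-2 by 0.0032, and Mir30a by -0.07 (adjusted p = 0.775). Mir30b and Mir30d, members of the family by name, differed by 0.05 and -0.02 (adjusted p = 0.913 and 0.944). None of these 6 passed the unadjusted p.

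Mir365-1 had low and narrow values, in HC from 6.20 over 6.29 to 6.35 and in CSD from 6.37 over 6.41 to 6.46. Its groups did not overlap either, at a difference of 0.13 (SE 0.04, adjusted p = 0.313). Mir365-2, which gives the same miR-365-3p, also differed by 0.13 (SE 0.07, adjusted p = 0.682), but its groups overlap. Mir690 ran from 8.41 over 8.73 to 8.87 in HC and from 8.87 over 8.97 to 9.03 in CSD. HC replicate 3 was far below the other HC arrays, and CSD replicate 10 lay just under the top of HC. The difference was 0.24 (SE 0.07, 1.18-fold, adjusted p = 0.313).

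The next members by p were Mir181a-2, Mir188 and Mir221, whose mature forms are known from lymphocyte development, dendritic spines and cell cycle control, in that order. Mir181a-2 had means of 6.29 ± 0.07 in HC and 6.48 ± 0.15 in CSD (SD, n = 6, adjusted p = 0.410). CSD replicates spread widely, and 4 of 6 lay above HC. Mir188 was close to noise, with means of 5.82 ± 0.09 and 5.97 ± 0.08 and 2 arrays at the noise level (adjusted p = 0.410). Mir221 had means of 7.37 ± 0.09 and 7.54 ± 0.14, with 5 of 6 CSD arrays above HC (adjusted p = 0.457).

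Of the other genes with the miR-181 seed ACAUUCA, Mir181b-2, which is transcribed beside Mir181a-2, differed by -0.01, Mir181b-1 by 0.0074, Mir181c by 0.10 and Mir181d by 0.06. Genes with the miR-15 seed AGCAGCA differed by 0.15 (Mir15a), 0.11 (Mir195a), 0.0078 (Mir16-1) and -0.07 (Mir497). Differences of both signs thus stood beside each other within each seed, and none of the 8 genes named here beside Mir181a-2 passed the unadjusted p.

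Under the main settings no microRNA gene was lower in CSD at an unadjusted p under 0.05. The smallest p in that direction belonged to Mir218-1, a motor neuron microRNA also studied in the mPFC of stressed mice, which ran in HC from 7.53 over 7.94 to 8.15 and in CSD from 7.56 over 7.78 to 7.93. The groups overlap over nearly their whole range, at a difference of -0.15 (SE 0.09, adjusted p = 0.735). Mir485 differed by -0.10 (adjusted p = 0.741) and Mir695 by -0.10 (adjusted p = 0.750). Mir543 differed by -0.13, Mir30a by -0.07, Mir122 by -0.20, Mirlet7d by -0.07 and Mir212 by -0.10, each with an adjusted p above that of Mir218-1. Mir122, the hepatocyte microRNA, had the widest spread of these, with an SD of 0.39 in HC.

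Lists of microRNAs by cell type were compared by how many genes were above noise. Over all microRNA genes with a probe set of their own this was 208 of 296. Of the neuronal list, 17 of the 18 genes with a probe set of their own were above noise (Mir488 was not), among them copies of Mir9, Mir124a, Mir128, Mir132 and Mir138. Of a list of microRNAs of muscle, liver, pancreas, epithelium and embryonic stem cells 9 of 20 were above noise. The 4 Mir302 genes of stem cells and the muscle genes Mir1a-1, Mir1a-2, Mir133a-1, Mir133a-2 and Mir206 were not, whereas Mir122, Mir375, 3 genes of the Mir200 family and others were. Whether a mature microRNA was present was not measured for any of them.

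The neuronal list split evenly, with 8 genes higher in CSD, 9 lower and a median difference of -0.02, beside 0.047 over the 208 members. Mir384 and Mir128-2 had its smallest p. Mir128-2, a copy of the gene for the abundant neuronal miR-128, ran from 8.16 over 8.31 to 8.50 in HC and from 8.34 over 8.49 to 8.59 in CSD, with 3 CSD arrays above HC. The difference was 0.17 (SE 0.06, adjusted p = 0.468). Mir128-1, the other copy, differed by 0.19 (SE 0.10, adjusted p = 0.654).

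Microglial and leukocyte microRNAs had 4 measured genes, 3 higher and 1 lower. Mir146b, a brake on innate immune signalling, differed by 0.10 (adjusted p = 0.576), with 3 arrays at noise, and Mir142, a blood cell microRNA, by -0.07 (adjusted p = 0.850). Mir155 and Mir150 differed by 0.02 and 0.02. Of the microRNAs of vessels and red blood cells 1 of 5 was above noise: Mir143 of smooth muscle, at 0.16 (adjusted p = 0.677). The red blood cell genes Mir144 and Mir451a and the endothelial Mir126a were not above noise in any array.

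The oligodendrocyte list was of interest because all 7 measured protein-coding markers of mature oligodendrocytes, of 8 listed, were lower in CSD at the unadjusted limits. Over all measured genes 0.6% were lower at those limits. The paper from the same arrays lists these 7 markers as reduced, so they are not an independent observation. Their differences ran from -0.84 to -0.32 with adjusted p from 0.099 to 0.199, and their mean level per array ran from 10.40 to 10.88 in HC and from 9.84 to 10.34 in CSD. In these arrays of bulk tissue, fewer oligodendrocytes and less RNA per oligodendrocyte cannot be told apart. In other mice the paper counted fewer mPFC cells positive for Mog or Ermn mRNA after CSD. Its staining for GSTπ, a protein of mature oligodendrocytes, found a similar density of mature oligodendrocytes in the mPFC of both groups. Of the microRNA genes tied to these cells 4 were measured, 2 higher and 2 lower, at differences from -0.02 to 0.15. Mir338, a promoter of oligodendrocyte maturation, ran from 7.05 over 7.46 to 7.56 in HC and from 7.29 over 7.56 to 7.65 in CSD. The groups overlap, at a difference of 0.15 (SE 0.09, adjusted p = 0.730). Mir23a, a microRNA tied to myelin through lamin B1, differed by 0.07 (adjusted p = 0.840). The 2 lower genes, Mir219a-1 and Mir219a-2, differed by -0.022 and -0.015 (adjusted p = 0.949 and 0.975). The part of the lower oligodendrocyte markers in the microRNA values was not tested.

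MicroRNAs studied in stress, such as the Mir124a, Mir135 and Mir34 genes, had 20 genes with a probe set of their own, of which 10 were above noise. Of those 5 were higher and 5 lower, with a median difference of 0.0018, and none passed the unadjusted p. Mir15a had the smallest p among them, at means of 9.10 ± 0.15 in HC and 9.25 ± 0.11 in CSD (SD, n = 6, adjusted p = 0.602). In the let-7 family, regulators of developmental timing, 8 of 10 genes were above noise, 4 higher and 4 lower. Mirlet7a-2 differed by 0.14 (adjusted p = 0.482) and Mirlet7i by 0.10 (adjusted p = 0.802). The 3 genes of the Mirlet7d to Mirlet7a-1 cluster on chromosome 13 all had lower means, by -0.07 to -0.03.

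MicroRNA genes often lie in clusters that are cut from a common transcript, and 49 members lay in a cluster with at least 3 measured (starts within 10 kb on the same strand). The largest such groups lie in the imprinted Dlk1-Dio3 domain of chromosome 12, whose microRNAs are transcribed from the maternal chromosome and are abundant in neurons. In the Mir379 to Mir369 group 27 of 36 RefSeq genes were measured, 21 with a higher mean in CSD and 6 lower, with a median difference of 0.08. In the Mir673 to Mir136 group 8 of 14 were measured, 6 higher and 2 lower, with a median of 0.07. These shares resemble that of the microRNA genes as a whole (74.0%), and genes of a common transcript are not independent.

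Within the Mir379 to Mir369 group the smallest p belonged to Mir494 and Mir679. Mir494 ran from 7.82 over 7.87 to 7.97 in HC and from 7.898 over 7.96 to 8.18 in CSD, a difference of 0.11 (SE 0.05, adjusted p = 0.545). Mir679 ran from 9.13 over 9.30 to 9.43 and from 9.23 over 9.50 to 9.71, a difference of 0.18 (SE 0.08, adjusted p = 0.568). In both, the groups overlap, with 2 and 4 CSD arrays above HC. Differences along the group went from 0.24 (Mir376a, SE 0.11) to -0.13 (Mir543, SE 0.08), and Mir134, a microRNA of dendritic spines, stood at -0.03. In the Mir673 to Mir136 group Mir540 differed by 0.11 (adjusted p = 0.556) and Mir431 by 0.10 (adjusted p = 0.664).

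**Figure D4:**
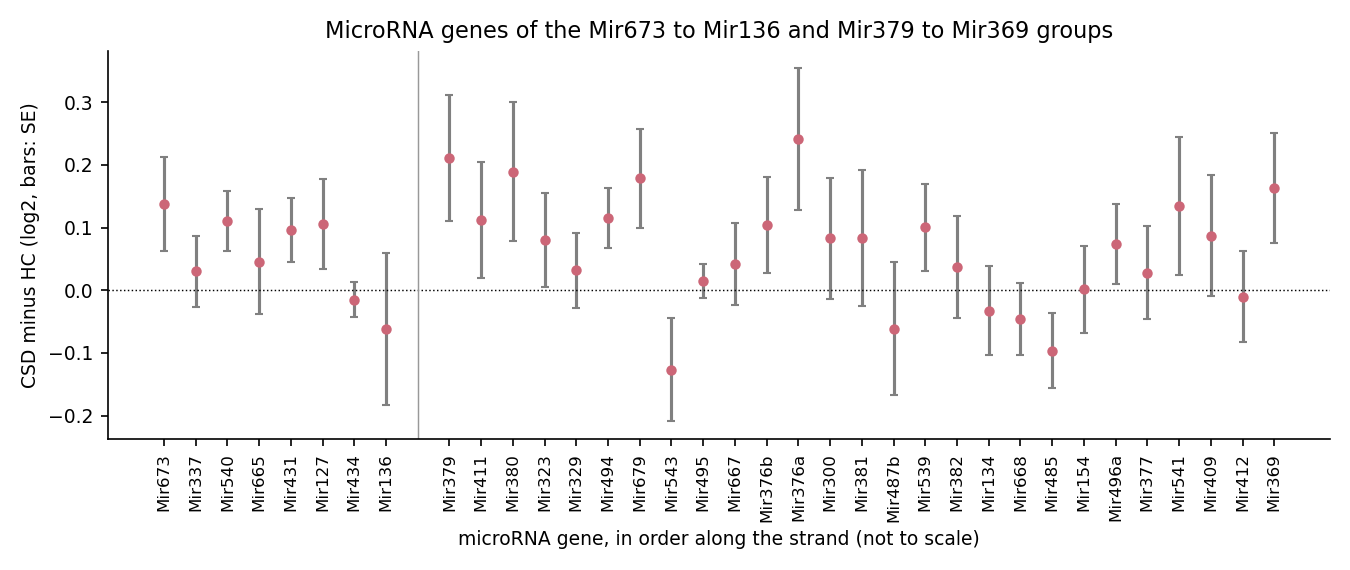
Difference between CSD and HC (log2, bars show the standard error) for the 8 and 27 measured microRNA genes of both chromosome 12 groups, in order along the plus strand and not to scale. Means were higher in CSD for 6 of 8 and 21 of 27 and the extremes are Mir376a at 0.24 and Mir543 at -0.13.

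On chromosome X the Mir500 to Mir532 cluster, which lies within the chloride transporter gene Clcn5, had 5 of 5 genes with a higher mean, with a median difference of 0.016 and signals from 5.82 to 7.26. Mir188, described above, was the 1 with an unadjusted p under 0.05, and the next, Mir501, differed by 0.04 (adjusted p = 0.894).

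Signals of different probe sets are not on a common scale, so no order is read from the members with the highest values. Of the 8 highest, Mir598 (10.15 ± 0.15 in HC, 10.30 ± 0.08 in CSD, SD, n = 6) and Mir674 (9.71 ± 0.10 and 9.82 ± 0.08) passed the unadjusted p, with adjusted p of 0.578 and 0.590. Mir341 differed by 0.06, Mir346 by 0.10, Mir667 by 0.04 and Mir134 by -0.03, with adjusted p from 0.802 to 0.944. Mir680-3 and Mir128-1, given above, complete them.

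Many microRNAs lie in introns of protein-coding genes on the same strand and can share their promoter. Of the members 82 lay within a RefSeq gene on their own strand, and for 60 of them a protein-coding host was measured (49 distinct hosts). The microRNA mean was higher and the host mean lower in 32 of the 60, both were higher in 14, both lower in 6, and the microRNA lower with the host higher in 7, with 1 host at equal means. The median difference was 0.047 for these 60 microRNA genes and -0.0091 for the hosts, which is near that of all measured genes. No host passed the unadjusted limits, and 3 of 49 had an unadjusted p under 0.05, all lower, where 6.52% of all measured genes were lower by that rule.

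**Figure D5:**
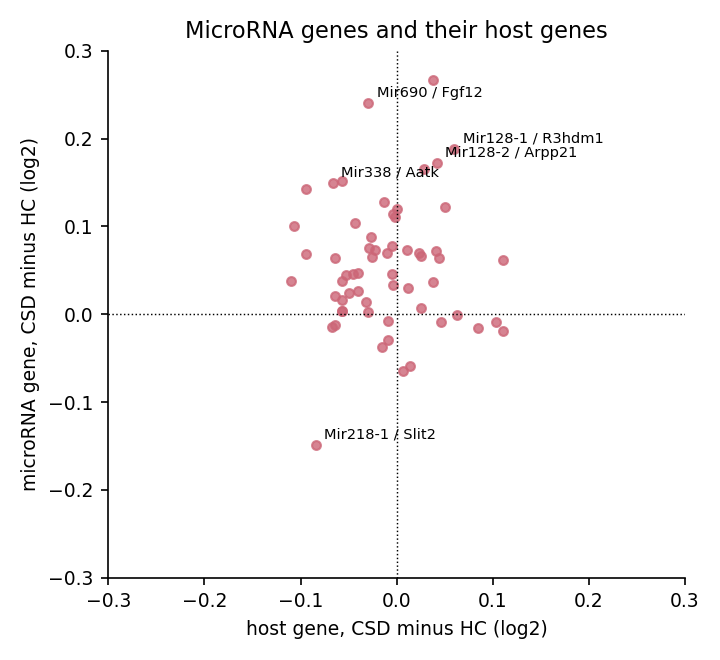
Difference between CSD and HC (log2) of 60 microRNA genes against that of the protein-coding gene each lies in; 5 pairs are named. Hosts stay between -0.11 and 0.11, and microRNA genes reach 0.27.

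The pairs named here were chosen after their values were seen. Mir690 (0.24) lies in Fgf12, a regulator of sodium channels, which differed by -0.03 (adjusted p = 0.868). Mir128-2 (0.17) lies in Arpp21, a phosphoprotein of dopamine-responsive neurons, which differed by 0.04 (adjusted p = 0.757), and Mir128-1 (0.19) in R3hdm1, at 0.06 (adjusted p = 0.783). Mir338 (0.15) lies in the kinase gene Aatk, at -0.07 (adjusted p = 0.757), and Mir218-1 (-0.15) in the axon guidance gene Slit2, at -0.08 (adjusted p = 0.761). Among the members past the unadjusted limits, neither Mir680-2 nor Mir384 had a host on its own strand in the RefSeq tables used.

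The proteins that make and use microRNAs differed little. Of 34 genes on that list 33 were measured, 17 with a higher mean in CSD and 16 with a lower one, a median difference of 0.0011 and 0 past the unadjusted limits. At any fold 2 of the 33 were lower at an unadjusted p under 0.05 and 0 were higher, a share near the 6.52% of all measured genes that were lower by that rule. The nuclear processing genes had 4 of 6 higher, with Drosha at -0.02, Dgcr8 at 0.0015 and Srrt, a partner of the cap-binding complex, at 0.13 (adjusted p = 0.614).

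Xpo5, the exporter of hairpins, had means of 9.36 ± 0.05 in HC and 9.25 ± 0.06 in CSD (SD, n = 6), and no CSD array lay above the HC mean. The difference was -0.11 (SE 0.04, adjusted p = 0.453). Mir693 lies within Xpo5 and differed by 0.10. Tsn, a subunit of the nuclease C3PO that acts on small RNAs, had means of 10.07 ± 0.09 and 9.91 ± 0.06, again with no CSD array above the HC mean, a difference of -0.15 (SE 0.05, adjusted p = 0.338). Its partner Tsnax differed by -0.03.

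In the cytoplasm Dicer1 differed by -0.02, Tarbp2 by 0.0094 and Prkra by -0.05. Argonautes and their silencing partners had 6 of 10 higher, from -0.08 (Tnrc6a) to 0.06 (Fmr1), with Ago2, the Argonaute with slicer activity, at -0.0077. Of 12 genes for editing, tailing and decay 6 were higher and 6 lower. The let-7 regulators Lin28a and Lin28b differed by -0.04 and 0.02.

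Other cell types were checked with marker lists. Markers of cortical excitatory neurons had a mean level per array of 12.22 to 12.33 in HC and 12.20 to 12.35 in CSD, with 2 of 4 higher, at differences from -0.06 to 0.02. The 4 astrocyte and 4 microglia markers had lower means, with medians of -0.08 and -0.06 and 1 of each list at an unadjusted p under 0.05. The 3 measured striatal markers had lower means, with a median of -0.16 and 1 at an unadjusted p under 0.05. Of all measured genes 42.9% had a higher mean in CSD, the median difference was -0.010, and 6.52% were lower at that p. Lists of 3 or 4 genes are too short to set against those shares. Of 3 endothelial markers 1 was higher, with a median of -0.05, and the measured red blood cell marker, Alas2, differed by 0.14. Markers of choroid plexus stayed at 6.63 to 7.08 in HC and 6.62 to 6.91 in CSD. No list's part in the microRNA values was tested.

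The 88 genes not above noise were left out of the tests. Of those just outside, the highest values were 5.70 for Mir361, 5.71 for Mir32 and 5.74 for Mir199b, and of those just inside 5.76 for Mir490, 5.79 for Mir98 and 5.80 for Mir208a, around a noise level of 5.75. Of the 208 measured, 178 were above noise on all arrays, and 15 were at noise on 6 or more, for which a difference is bounded by the noise level. A further 61 probe sets name a microRNA gene together with other genes and were not used.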

How the data were processed

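RNA of the mPFC of 6 HC and 6 CSD mice was hybridized, each mouse to its own array. The deposited table gives 35556 probe sets as log2 values from the RMA routine of the Affymetrix Expression Console (no version given in the sources used). An array has no read depth, and the number of arrays limits the precision. The methods read system noise off a LOWESS fit of variation against mean signal; here it was instead put at 5.75, the 20th percentile over the whole table. Probe sets with no value above it (5718) were left out, and 4.67% of the kept values were raised to it. CSD was tested against HC by limma 3.58.1 (R 4.3.3, two-sided, Benjamini-Hochberg over the 29838 probe sets kept), and single genes also with an exact permutation test over the arrays, whose smallest p is 0.0022. In the platform annotation 21789 probe sets have 1 gene, 1621 have more and 12146 have none listed. The brightest probe set stood for a gene, and RefSeq tables gave hairpins, hosts and clusters. Named genes were those past the unadjusted limits, the 8 smallest p in each direction, those whose groups did not overlap, the 8 brightest, Mir384, the 2 smallest p of each list and of clusters with at least 5 measured, and hosts; genes beyond this rule were named after their values were seen, as seed relatives, cluster ends, list members or pairs. The members and lists were chosen with earlier results of these data known. Alternatives were the methods' t-test, other floors, scalings and variance models, a replicate block, other choices of probe sets and fold limits, and arrays left out. The test was tried on simulated data. Figures were drawn with matplotlib 3.10.9.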

Additional observations from a re-analysis of the deposited data

Results flagged for a closer look

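In the 80 groups of 6 arrays examined for the named microRNA genes and for the median deviation per array, 6 held an array whose gap to its neighbour as a share of the group's range was above Dixon's critical value, which chance gives in about 1 in 20 groups. HC replicate 6 stood apart in 3 of them, low for Mir346 (10.26) and Mir598 (9.88) and high for Mir181a-2 (6.42). HC replicate 3 was low for Mir128-1 (9.65), HC replicate 5 was low for Mirlet7d (7.87) and CSD replicate 9 was high for Mir431 (8.35).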

How the results depend on the processing

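Counts of members called after adjustment were 0 under every alternative run. The 2 members higher at the unadjusted limits became 1 with arrays centred on their medians (Mir384), 5 without HC replicates 2 and 6 together, 21 with no fold limit and 0 with a fold limit of 1.5, and ran from 1 to 7 as each array was left out. Array weights gave 3 (Mir690, Mir384 and Mir186), without Mir680-2. The pathway genes past the limits, 0 in the report, were 2 with no fold limit. HC and CSD share the replicate numbers 2 and 6, and deviations of same-numbered arrays correlated at -0.21 and -0.035. These values gave no sign that the numbers pair the mice, but 2 shared numbers cannot exclude it. With the replicate block, which uses only those 4 arrays and leaves 1 residual degree of freedom, 1 member was higher (Mir692-1) and 1 lower (Mir543) at the unadjusted limits, and the median difference was -0.0036. Under that block the sign turned for Mir142 (0.00717), Mir341 (-0.085), Mir375 (-0.030), Mir501 (-0.0027), Mir679 (-0.031) and Mirlet7d (0.015). Mir667 stood at -0.00195 without HC replicates 2 and 6, from -0.016 to 0.070 with single arrays left out, and Mir134 from -0.067 to 0.012. Mir680-2 ran from 0.24 to 0.30 and Mir384 from 0.27 to 0.40 with single arrays left out. The share of higher members was 61.4% without HC replicate 6 and 61.5% of 296 with no filter and no floor. Values added after seeing the data were the 154 higher means, which were 99 with the replicate block, the 21 past the unadjusted p at any fold, from 11 to 37 with single arrays left out, and the median relative to all measured genes, which stayed between 0.039 and 0.074. Dim members are bounded by the noise level.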
